A study of Mus musculus with 8 samples.

Results

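The V genes of the immunoglobulin kappa light chain were described in bone marrow B cells treated with estrogen or vehicle. The members were every gene of the deposited table whose symbol begins with Igkv and whose annotated biotype is a V gene rather than a V pseudogene. This gave 100 genes of 46983 in the table, in 20 families. The B cells were sorted magnetically from the marrow of wild-type mice and were under hypoxia in both groups. Estrogen was the treatment of 4 libraries, called Estrogen 1 to 4, and vehicle alone that of the remaining 4, called Vehicle 1 to 4. The strain, sex and age of the mice, the dose and the time of treatment are not given in the labels of these libraries, nor is it stated whether each library had its own mouse. The p-values therefore rest on the variation among these 8 libraries alone, and that variation may be technical.

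A kappa light chain is made from a V segment, a J segment and a constant region. In each developing B cell the Rag1 and Rag2 recombinase joins a V segment to a J segment, and the joined exon is spliced to Igkc, the only kappa constant gene. Some V segments lie on the same strand as Igkc and are joined by deletion of the DNA in between, whereas others lie on the opposite strand and are joined by inversion. A cell whose first receptor is autoreactive can rearrange again, joining a V segment farther upstream to a J segment farther downstream. The share of kappa V reads that falls on each V gene is therefore a common readout of a B cell repertoire, with the limit that RNA levels per cell and the number of cells both enter it.

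The 8 libraries held between 30181834 and 39088597 reads. At that depth 3 reads, taken as the detection floor, corresponded to a level of 0.0780 to 0.102 CPM (counts per 1000000, with library sizes scaled by the TMM method). Intervals and floors given here cover counting error only. The B lineage label was checked on Cd79a, a signalling chain of the B cell receptor, which lay between 1264 and 2751 CPM in Estrogen and between 1496 and 3146 CPM in Vehicle. Cd3e, a component of the T cell receptor complex, lay between 0.145 and 0.374 CPM in Estrogen and between 0.225 and 0.546 CPM in Vehicle. Of the other T cell markers listed, Cd3d, Cd3g, Thy1 and Trac stayed at or below 1.79 CPM, but Cd8b1 reached 15.7, Cd4 100 and Cd8a 133 CPM. The neutrophil marker S100a9 lay between 1155 and 3172 CPM over the 8 libraries, a level like that of Cd79a. Cd79a and Cd3e alone thus do not show how pure the sort was.

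The germline ends of the V segments are shown first, because the bases from the conserved cysteine codon onward are what each V gene brings to the third complementarity determining region (CDR3), the loop formed at the V to J join. The sequences are from the GENCODE M21 transcripts on GRCm38, written 5′ to 3′, with the bases from that cysteine codon to the end of the germline V exon in capitals. The first 10 are those with the largest mean share of reads, in that order.
Igkv1-135: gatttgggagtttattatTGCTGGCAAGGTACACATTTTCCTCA
Igkv1-117: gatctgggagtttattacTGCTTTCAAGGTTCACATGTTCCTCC
Igkv17-127: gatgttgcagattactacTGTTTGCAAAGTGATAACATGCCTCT
Igkv17-121: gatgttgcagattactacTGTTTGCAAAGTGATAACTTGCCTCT
Igkv10-96: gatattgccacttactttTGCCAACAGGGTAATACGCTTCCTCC
Igkv9-120: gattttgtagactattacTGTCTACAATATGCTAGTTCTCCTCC
Igkv6-15: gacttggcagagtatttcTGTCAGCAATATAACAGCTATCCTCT
Igkv6-23: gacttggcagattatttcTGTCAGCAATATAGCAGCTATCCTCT
Igkv14-111: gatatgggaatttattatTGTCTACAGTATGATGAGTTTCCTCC
Igkv6-32: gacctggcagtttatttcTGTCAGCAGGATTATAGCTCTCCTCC
The next 3 are given because their capitals equal those of another gene used at a different or an equal level.
Igkv9-129: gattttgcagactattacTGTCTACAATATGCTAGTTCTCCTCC
Igkv8-24: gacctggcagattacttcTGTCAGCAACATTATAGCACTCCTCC
Igkv6-25: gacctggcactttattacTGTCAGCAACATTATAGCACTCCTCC

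A cysteine codon in this place was found in 100 of 100 genes, and the germline end counted from the first base of that codon was 26 bases long in 69 of them, with a range of 21 to 32 bases. In all, 90 different ends were found, and 19 genes shared theirs with at least 1 other gene. Igkv17-127 and Igkv17-121 differed by A19T alone within the capitals, counted from 1 at the first base of the cysteine codon of Igkv17-127. Within the capitals Igkv6-15 and Igkv6-23 differed by A14G alone, counted the same way from Igkv6-15, and they had 1 further difference in the 18 bases before. Igkv9-120 and Igkv9-129 had identical capitals, yet Igkv9-120 took 3.25% ± 0.19 of Igkv reads and Igkv9-129 took 0.400% ± 0.053 (mean ± SD over 8 libraries). Igkv8-24 and Igkv6-25, which belong to different families and lie next to each other in the locus, also had identical capitals, and here the shares were close, at 1.47% ± 0.36 for Igkv8-24 and 1.46% ± 0.28 for Igkv6-25. The last bases CCTCC closed 42 of the 100 ends. These 42 genes together took 49.3% to 51.3% of Igkv reads in Estrogen and 51.1% to 53.2% in Vehicle, ranges that overlapped. The 19 genes that share their end took 18.98%, 17.9%, 18.9% and 18.9% of Igkv reads in Estrogen 1 to 4 and 20.2%, 20.1%, 19.4% and 19.1% in Vehicle 1 to 4. Here every Estrogen library was below every Vehicle library, with a narrow gap between Estrogen 1 and Vehicle 4, and no test was made of this sum. Many such sums were examined, and none of the 20 families separated. The mean sums were 18.7% in Estrogen and 19.7% in Vehicle. Igkv8-24 (1.28% in Estrogen, 1.66% in Vehicle) and Igkv6-25 (1.29% and 1.62%) made much of that difference. Not all the 19 genes went that way, as Igkv5-43 had 1.63% in Estrogen and 1.49% in Vehicle.

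The summed Igkv RNA varied more between libraries of a group than between the groups. It was 2171, 1047, 1631 and 1052 CPM in Estrogen 1 to 4 and 2337, 1832, 2061 and 1328 CPM in Vehicle 1 to 4. Estrogen 2 and Estrogen 4 were the lowest of the 8 libraries and Vehicle 1 was the highest, but Estrogen 1 was above 3 of the 4 Vehicle libraries, so the groups overlapped. The means were 1476 ± 539 CPM in Estrogen and 1890 ± 428 CPM in Vehicle (SD, n = 4 each), a ratio of 0.781, or -0.36 on the log2 scale. Single libraries set much of this size, since the log2 ratio was -0.60 without Estrogen 1, -0.22 without Estrogen 2, -0.23 without Estrogen 4 and -0.24 without Vehicle 1. As reads, the sums ran between 33210 and 63869 in Estrogen and between 44295 and 77639 in Vehicle. In bulk RNA, fewer cells of a type and less RNA per cell cannot be told apart.

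**Figure D1:**
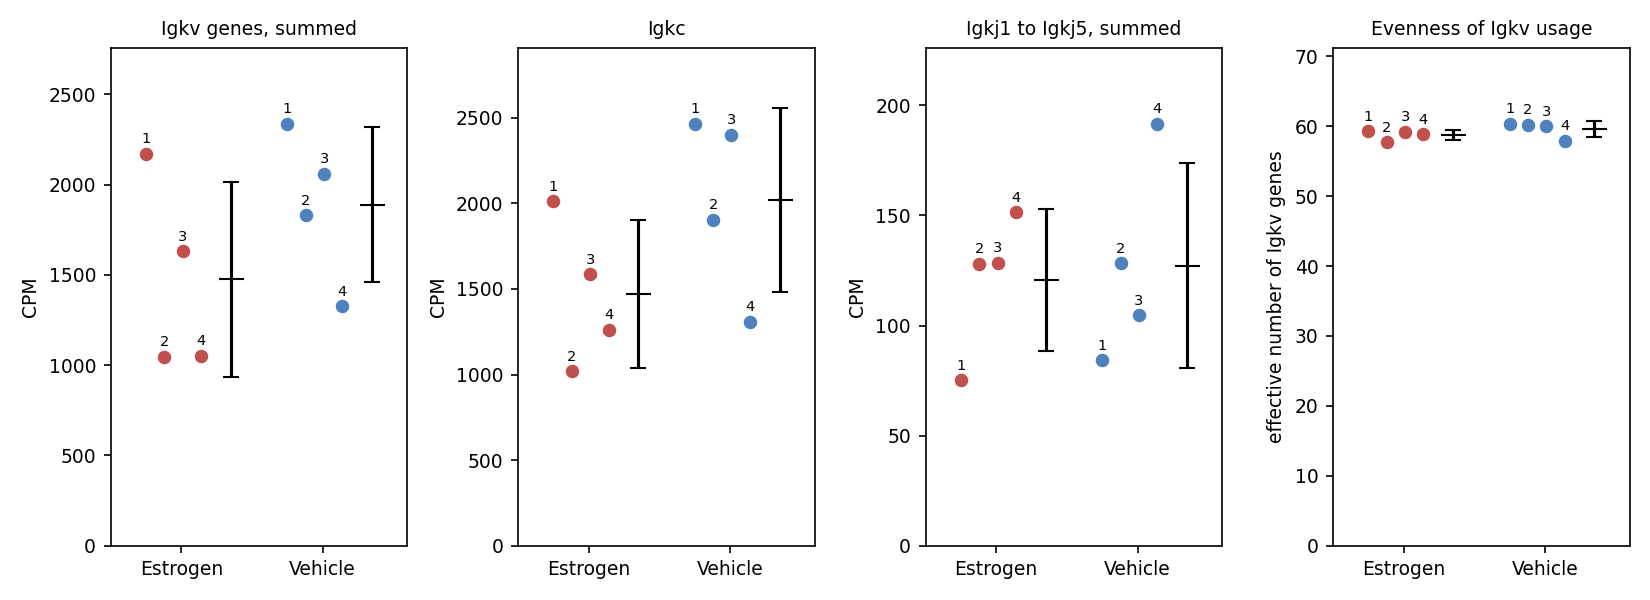
Points are the 8 libraries, numbered by replicate, and bars are the mean ± SD of 4 libraries. The first 3 panels give CPM and the last the effective number of Igkv genes. The summed Igkv level lay between 1047 and 2171 CPM in Estrogen and between 1328 and 2337 CPM in Vehicle. Igkc had nearly the same order of libraries, the summed Igkj level had nearly the opposite order, and the effective number of genes stayed between 57.7 and 60.4 in all 8 libraries.

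Igkc followed the V genes closely. Its level was 2014, 1020, 1587 and 1262 CPM in Estrogen 1 to 4 and 2466, 1904, 2402 and 1309 CPM in Vehicle 1 to 4. Estrogen 2 was again the lowest library and Vehicle 1 the highest, and the groups overlapped. The fitted difference of Igkc was -0.46 ± 0.25 (log2, Estrogen minus Vehicle, ± SE), which did not pass the test (adjusted p = 0.860, edgeR quasi-likelihood). The number of Igkv reads per Igkc read was 1.08, 1.03, 1.03 and 0.834 in Estrogen 1 to 4 and 0.948, 0.962, 0.858 and 1.01 in Vehicle 1 to 4. Both groups had 1 library near 0.85 and the rest close to 1, so this ratio did not separate them (0.992 ± 0.108 in Estrogen, 0.946 ± 0.065 in Vehicle, SD, n = 4 each).

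The Igkj segments, which stay in a primary transcript downstream of the joined J until it is spliced, did not follow the V genes. Which RNA the Igkj reads came from was not tested. Igkj1 to Igkj5 together stood at 75.2, 128, 128 and 152 CPM in Estrogen 1 to 4 and at 84.1, 128, 105 and 192 CPM in Vehicle 1 to 4. Estrogen 1, Vehicle 1 and Vehicle 3, the 3 libraries with the highest Igkv sums, had the lowest Igkj sums, and Vehicle 4 and Estrogen 4 had the highest. Per 1000 Igkv reads there were 34.6, 122, 78.7 and 144 Igkj reads in Estrogen 1 to 4 and 36.0, 70.0, 50.8 and 144 in Vehicle 1 to 4. This ratio spanned 4.17-fold over the libraries, and both the high and the low ends were found in each group. None of Igkj1 to Igkj5 passed the test, with the smallest p of them for Igkj3 (fitted log2 difference -0.16 ± 0.26, adjusted p = 0.887 by edgeR).

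Lambda light chains, the alternative to kappa, are encoded by few V genes in the mouse. Iglv1, Iglv2 and Iglv3 summed to 939, 454, 832 and 361 CPM in Estrogen 1 to 4 and to 1011, 726, 562 and 408 CPM in Vehicle 1 to 4. Their part of all kappa and lambda V reads was 30.2%, 30.3%, 33.8% and 25.6% in Estrogen 1 to 4 and 30.2%, 28.4%, 21.4% and 23.5% in Vehicle 1 to 4. Vehicle 3 and Vehicle 4 were the lowest, Estrogen 3 was the highest, and the groups overlapped. The lambda constant genes Iglc1 to Iglc4 took 22.5% to 31.0% of constant region reads in Estrogen and 23.1% to 26.8% in Vehicle, a range of the same order, on reads and not per length. Of the 16 other light chain genes listed, 15 could be tested, 12 had a lower and 3 a higher fitted value in Estrogen, and 0 passed. Besides Igkc and Igkj3, those with the smallest p were Iglc2 at -0.36 ± 0.34 and Iglv2 at -0.35 ± 0.45 (fitted log2 differences ± SE).

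Several B cell genes had an order of libraries like that of the Igkv sum. Ms4a1, the CD20 antigen, was at 1401, 542, 910 and 516 CPM in Estrogen 1 to 4 and at 1849, 1331, 1262 and 619 CPM in Vehicle 1 to 4. It was highest in Vehicle 1 and lowest in Estrogen 4 and Estrogen 2, and its fitted log2 difference was -0.59 ± 0.38 (adjusted p = 0.860, edgeR). It was -0.95 without Estrogen 1 and -0.33 without Vehicle 1. The 8 B lineage markers summed to between 11519 and 18873 CPM in Estrogen and between 13885 and 21904 CPM in Vehicle, and 8 of 8 had a lower fitted value in Estrogen with 0 past the test. In that list Pax5 was at -0.23 ± 0.15 and Ighm, the mu heavy chain, at -0.29 ± 0.19. The 8 markers of immature and mature B cells summed to between 2295 and 4045 CPM in Estrogen and between 2569 and 4734 CPM in Vehicle, and 8 of 8 were again lower with 0 past the test. Among them Fcer2a, the low-affinity IgE receptor CD23, was at -0.999 ± 0.28, Cr2 at -0.49 ± 0.23, H2-Eb1 at -0.47 ± 0.19 and Cd22 at -0.29 ± 0.13, all at an adjusted p of 0.860. Cr2 was at -0.27 without Vehicle 2. The 8 pro-B and pre-B markers summed to between 1158 and 1400 CPM in Estrogen and between 881 and 1398 CPM in Vehicle, with 3 lower, 5 higher and 0 past the test. Those with the smallest p were Il7r at 0.39 ± 0.23, Dntt, the terminal transferase that adds bases at V(D)J joins, at 0.26 ± 0.16, Kit at 0.21 ± 0.23 and Igll1, part of the surrogate light chain, at 0.07 ± 0.18. Kit was at 0.0054 without Estrogen 2 and 0.34 without Estrogen 1. The part of cell composition in the Igkv sum was not tested.

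Markers of other cells that a magnetic sort can leave were summed in the same way. The plasma cell list, 8 genes of which 7 could be tested, summed to between 1290 and 1581 CPM in Estrogen and between 1420 and 1652 CPM in Vehicle, with 3 lower, 4 higher and 0 past the test. The smallest p in it was that of Prdm1, the plasma cell regulator Blimp-1, which had 9.25, 11.4, 12.4 and 9.73 CPM in Estrogen 1 to 4 and 8.76, 8.27, 5.40 and 8.48 CPM in Vehicle 1 to 4. All Estrogen libraries were above all Vehicle libraries, as in 0.896% of all tested genes. The fitted log2 difference of Prdm1 was 0.47 ± 0.18 with an unadjusted p of 0.0303 from the fit over all genes (adjusted p = 0.860, edgeR). Xbp1, a factor of the secretory programme, followed at 0.20 ± 0.11, while Mzb1 was at -0.38 ± 0.24 and Tnfrsf13b at -0.34 ± 0.21. These 4 and the next 2 are named after their values were seen. Jchain, which joins IgM and IgA polymers, lay between 0.282 and 1.52 CPM in Estrogen and between 0.310 and 1.84 CPM in Vehicle, and Tnfrsf17, the receptor BCMA of plasma cells, stayed between 0 and 0.190 CPM over the 8 libraries. Neutrophil markers summed to 3137 to 9003 CPM in Estrogen and 3062 to 8597 CPM in Vehicle (3 of 8 lower, 5 higher). T cell markers summed to 128 to 245 CPM in Estrogen and 110 to 186 CPM in Vehicle (6 of 8 lower, 2 higher), monocyte and macrophage markers to 560 to 743 CPM in Estrogen and 568 to 889 CPM in Vehicle (3 of 8 lower, 5 higher), and plasmacytoid dendritic cell markers to 2089 to 3119 CPM in Estrogen and 1772 to 2359 CPM in Vehicle (2 of 6 lower, 4 higher). Of these 4 lists 0 genes passed the test. The T cell sum rested mostly on Cd4 and Cd8a, with means of 76.2 and 64.8 CPM over the 8 libraries. Cd3e had a mean of 0.319 CPM, so the sum was not taken as a level of T cells. Prdm1 did not stand alone among the listed markers. Cd8b1 and Thy1 of the T cell list were lower in Estrogen without overlap, as in 0.771% of all tested genes. Their unadjusted p were 2.98e-05 and 0.00705 and their adjusted p 0.452 and 0.860 (edgeR). Thy1 lay between 0.621 and 1.79 CPM over the 8 libraries. The 2 members of that list with a higher fitted value were Cd8a at 0.64 ± 0.49 and Cd4 at 0.12 ± 0.26. Fcer2a also had a smaller unadjusted p than Prdm1, at 0.00533 (edgeR). Cd8b1, Thy1 and Fcer2a are given here for these values.

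The evenness of the division of Igkv reads among the genes differed far less than their sum. Evenness does not register shares exchanged between genes, and single shares could move more. Igkv8-24, the most variable gene with a mean share above 1%, ran between 0.804% and 1.90% over the libraries. The effective number of genes, the exponential of the Shannon entropy, is the number of equally used genes that would give the same evenness. It was 59.3, 57.7, 59.2 and 58.8 in Estrogen 1 to 4 and 60.4, 60.2, 60.01 and 57.9 in Vehicle 1 to 4. Estrogen 2 and Vehicle 4 were the least even, the other 3 Vehicle libraries were the most even, and the groups overlapped (58.8 ± 0.7 in Estrogen, 59.6 ± 1.1 in Vehicle, SD, n = 4 each). The difference of -0.859 genes was -1.42 without Vehicle 4 and -0.516 without Estrogen 2. On a scale where 1 is equal use of all 100 genes, evenness was between 0.881 and 0.887 in Estrogen and between 0.881 and 0.890 in Vehicle. Between 73 and 84 genes had at least 100 reads in a library, and between 35 and 38 took more than 1% of its Igkv reads.

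Use was broad, with a few dominant genes. On average over the 8 libraries, 18 genes carried 50% of Igkv reads, the 10 most used carried 37.8% and the 50 least used carried 13.3%. The 10 most used together took 37.3%, 40.2%, 37.7% and 38.4% in Estrogen 1 to 4 and 36.3%, 36.6%, 36.9% and 38.9% in Vehicle 1 to 4. Estrogen 2 and Vehicle 4 were the highest and the groups overlapped. The 10 genes with the highest share per kilobase of exon were also those with the highest share of reads. Below them gene length shifted some ranks, as for Igkv12-44, which ranked 12 by reads and 15 per kilobase, and Igkv5-39, which ranked 27 by reads and 21 per kilobase. Among the 73 genes with at least 100 reads in every library, the most used had 20.5 times the per-kilobase share of the least used.

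Igkv1-135 was the most used gene in 7 of 8 libraries. It lies at chr6:67609713-67610508 of GRCm38 on the plus strand, 3112.1 kb upstream of Igkj1, and so close to the far end of the locus. Its share was 6.12%, 8.30%, 6.84% and 7.55% in Estrogen 1 to 4 and 6.13%, 5.99%, 6.34% and 7.77% in Vehicle 1 to 4. The Wilson 95% interval for Estrogen 2 was 8.03% to 8.59% and that for Estrogen 1 was 5.94% to 6.31%, so libraries of the same group differed beyond counting error. The groups overlapped, and the highest Vehicle value, in Vehicle 4, was above 3 of the 4 Estrogen values.

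Igkv1-117, at chr6:68121046-68121827 on the plus strand, was second and the steadiest of the well-used genes. Its share was 6.11%, 6.06%, 6.28% and 6.02% in Estrogen 1 to 4 and 6.005%, 6.13%, 5.92% and 6.54% in Vehicle 1 to 4. All 8 values thus lay within 1 percentage point, with a coefficient of variation of 3.18%, against a median of 8.89% over the 36 genes with a mean share above 1%. Igkv1-117 shared 49.9% of its 50-base windows with Igkv1-110, so its reads are among the less certain.

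Igkv17-127 and Igkv17-121 make up their family and came next. Igkv17-127 had 4.51%, 4.98%, 4.44% and 4.53% in Estrogen 1 to 4 and 4.03%, 3.79%, 4.71% and 4.53% in Vehicle 1 to 4. Igkv17-121 had 3.78%, 4.17%, 4.01% and 4.15% in Estrogen 1 to 4 and 3.40%, 3.32%, 3.74% and 4.07% in Vehicle 1 to 4. In both genes Vehicle 1 and Vehicle 2 were the lowest libraries and Estrogen 2 was the highest, with overlapping groups. The other 6 of the 10 were Igkv10-96 at 3.71% ± 0.24, Igkv9-120 at 3.25% ± 0.19, Igkv6-15 at 3.12% ± 0.25, Igkv6-23 at 2.21% ± 0.24, Igkv14-111 at 2.17% ± 0.13 and Igkv6-32 at 2.05% ± 0.15 (mean ± SD over 8 libraries). In each of these 6 the Estrogen and Vehicle shares overlapped.

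**Figure D2:**
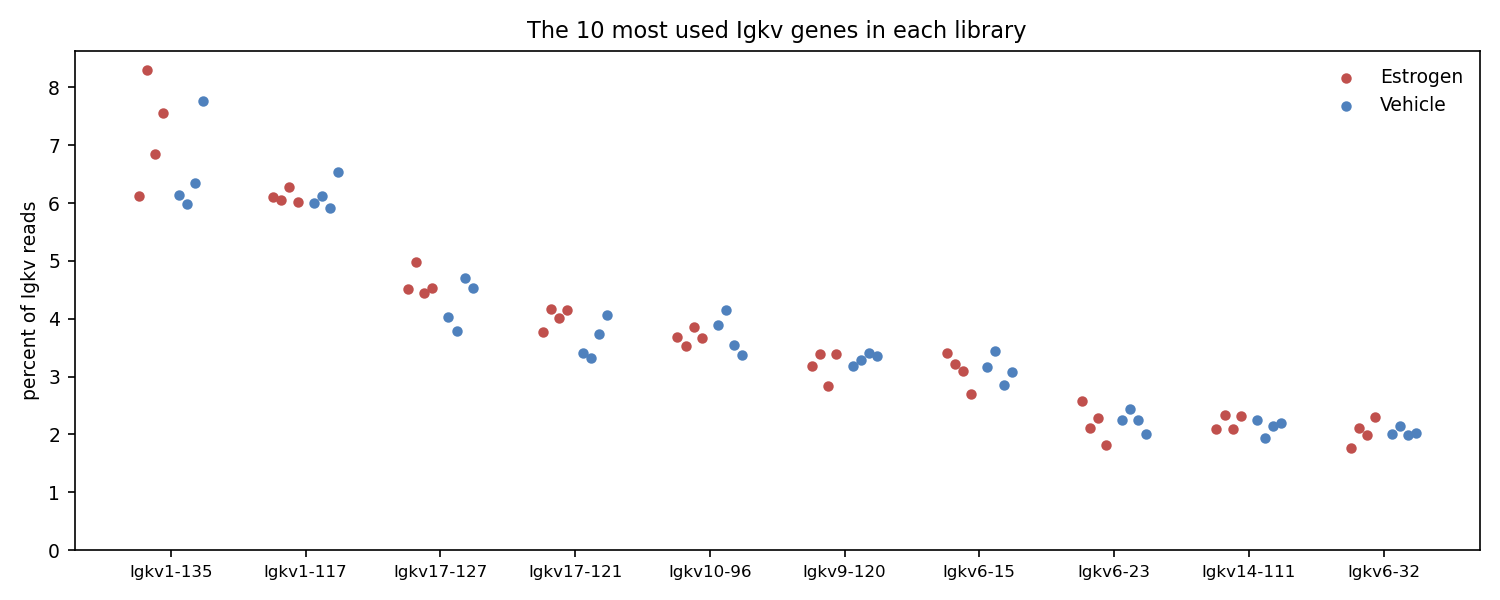
The percent of Igkv reads of the 10 most used Igkv genes is plotted for each library, with replicates 1 to 4 from left to right within a group. Igkv1-135 ran between 6.12% and 8.30% in Estrogen and between 5.99% and 7.77% in Vehicle, while Igkv1-117 stayed near 6.13% throughout, and the groups overlapped in all 10 genes.

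At the other end, 13 genes had a mean share below 0.1%. Igkv19-93 had 2, 1, 3 and 0 reads in Estrogen 1 to 4 and 0, 0, 1 and 1 in Vehicle 1 to 4. Igkv1-131 had 0, 5, 1 and 3 reads in Estrogen 1 to 4 and 0, 4, 0 and 0 in Vehicle 1 to 4. Igkv2-137, which overlaps the gene Gm42889 in the annotation, had 8, 16, 5 and 12 reads in Estrogen 1 to 4 and 0, 5, 5 and 5 in Vehicle 1 to 4. These 3 genes were too low for the test of differences, and the other 97 of 100 were tested. Reads were present in every library for 97 genes and in at least 1 library for all 100.

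The use of the V genes was nearly the same in all libraries, but not to the limit of counting. Across the 73 genes with at least 100 reads everywhere, the log2 shares of pairs of libraries correlated at r = 0.952 to 0.981 within Estrogen (6 pairs), 0.964 to 0.984 within Vehicle (6 pairs) and 0.951 to 0.983 between the groups (16 pairs). These are correlations across genes, which are not independent replicates. A chi-square per degree of freedom, which is near 1 where only counting error separates a pair, was 6.44 to 13.6 within Estrogen, 5.06 to 12.8 within Vehicle and 3.80 to 14.6 between the groups. The chi-square also grows with the number of reads. Its lowest values, 3.80 and 3.94, were those of Vehicle 4 with Estrogen 2 and with Estrogen 4, the libraries with the fewest Igkv reads. It was therefore not used to compare pairs within and between the groups. By r, pairs of libraries from the same group were no closer as a set than pairs from different groups. By the chi-square, no pair could be taken as a library counted again.

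The 20 families differed widely in their share and little between the groups. Igkv1, with 10 genes, took the largest share, at 17.2% ± 0.5 in Estrogen and 16.6% ± 1.0 in Vehicle (SD, n = 4 each). Igkv4, the family with most genes (26), took 15.7% ± 0.4 in Estrogen and 15.3% ± 0.4 in Vehicle. Use per gene did not follow the number of genes in a family. The median gene had 0.421% of Igkv reads in Igkv4 (26 genes), 1.46% in Igkv6 (9 genes) and 4.13% in Igkv17 (2 genes), whereas the only gene of Igkv7 had 0.0512%.

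Igkv6 and Igkv8, which lie wholly in the part of the locus near Igkj1, came next in size. Igkv6 took 13.3%, 12.5%, 12.99% and 10.8% in Estrogen 1 to 4 and 14.0%, 14.5%, 12.6% and 11.8% in Vehicle 1 to 4. It was lowest in Estrogen 4 and Vehicle 4 and highest in Vehicle 2, and the groups overlapped. Igkv8 took 9.70% ± 0.94 in Estrogen and 9.84% ± 0.33 in Vehicle.

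Igkv17 and Igkv3 followed. Igkv17 took 8.29%, 9.15%, 8.45% and 8.68% in Estrogen 1 to 4 and 7.43%, 7.11%, 8.45% and 8.59% in Vehicle 1 to 4. Vehicle 1 and Vehicle 2 were below all Estrogen libraries, whereas Vehicle 3 and Vehicle 4 were among them. Igkv3 took 6.46%, 7.12%, 6.48% and 8.75% in Estrogen 1 to 4 and 7.50%, 7.24%, 8.08% and 7.72% in Vehicle 1 to 4, with Estrogen 4 above and the other 3 Estrogen libraries below all Vehicle libraries.

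Of the middle-sized families, Igkv10 had 5.36% ± 0.17 in Estrogen and 5.43% ± 0.46 in Vehicle. Igkv5 had 5.12% ± 0.15 in Estrogen and 4.84% ± 0.08 in Vehicle, with Estrogen 4 inside the Vehicle range and the other 3 Estrogen libraries above it. Igkv12 had 4.85% ± 0.25 in Estrogen and 5.09% ± 0.14 in Vehicle. Each of these families still overlapped between the groups. Igkv9 had 4.41% ± 0.33 in Estrogen and 4.59% ± 0.07 in Vehicle, and Igkv14 had 3.67% ± 0.21 in Estrogen and 3.52% ± 0.20 in Vehicle.

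The small families gave 1.45% ± 0.06 in Estrogen and 1.57% ± 0.15 in Vehicle for Igkv2, 1.44% ± 0.17 in Estrogen and 1.57% ± 0.06 in Vehicle for Igkv16, 1.34% ± 0.10 in Estrogen and 1.43% ± 0.14 in Vehicle for Igkv13, and 1.02% ± 0.17 in Estrogen and 0.948% ± 0.052 in Vehicle for Igkv15. Igkv11, Igkv18, Igkv7, Igkv20 and Igkv19 each stayed under 0.5% in both groups, with 0.381% in Estrogen and 0.374% in Vehicle for Igkv11, 0.0902% in Estrogen and 0.0830% in Vehicle for Igkv18, 0.0561% in Estrogen and 0.0464% in Vehicle for Igkv7, 0.0278% in Estrogen and 0.0294% in Vehicle for Igkv20, and 0.0028% in Estrogen and 0.00091% in Vehicle for Igkv19 (means of 4 libraries). In none of the 20 families did the Estrogen and Vehicle libraries separate.

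**Figure D3:**
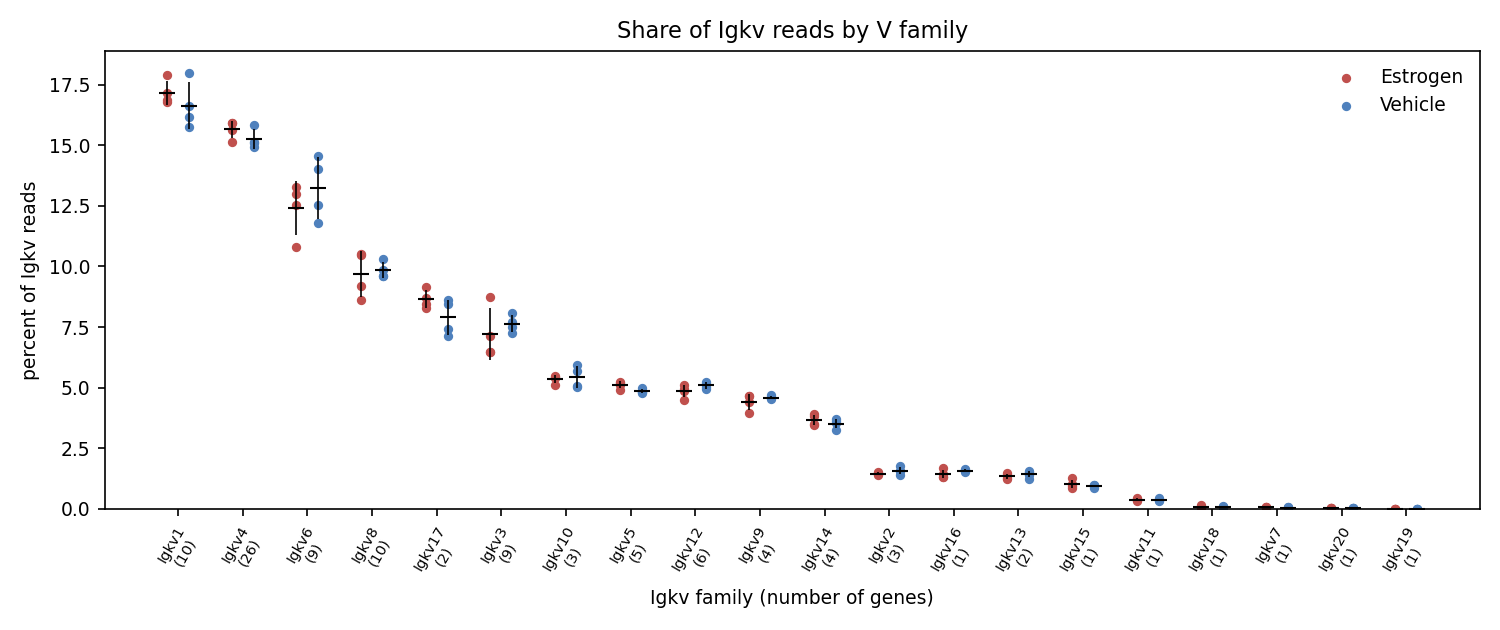
Each point is the percent of Igkv reads that fell on a family in 1 library, and lines are the mean ± SD of 4 libraries. Families are ordered by mean share over 8 libraries, and the number of genes is in brackets. Igkv1 and Igkv4 lead in both groups, Igkv17 has 8.64% in Estrogen and 7.90% in Vehicle from 2 genes, and the groups overlap in every family.

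High and low use alternated along the locus, as the plot of usage by position shows. The members span 18.4 kb to 3166.3 kb upstream of Igkj1. They were split by order of distance into 3 groups of similar size, a near group (33 genes, up to 778.9 kb), a middle group (33 genes, up to 1859.5 kb) and a far group (34 genes). The far group held 7 of the 10 most used genes, the near group held 3 and the middle group 0. Nevertheless the median gene of the far group had 0.508% of Igkv reads, less than in the middle group (0.663%) and the near group (0.894%), so the far group combined a few very high genes with many low ones.

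The far group took 44.2%, 46.5%, 43.8% and 46.2% of Igkv reads in Estrogen 1 to 4 and 43.4%, 42.7%, 44.0% and 45.9% in Vehicle 1 to 4. The near group took 30.5%, 28.7%, 30.3% and 29.2% in Estrogen 1 to 4 and 31.7%, 32.5%, 30.6% and 29.5% in Vehicle 1 to 4. Estrogen 2, Estrogen 4 and Vehicle 4 had the largest far and smallest near share, and these were also the libraries with the lowest Igkv sums and the most Igkj reads per Igkv read. The middle group hardly moved, at 25.2% ± 0.5 in Estrogen and 24.9% ± 0.3 in Vehicle.

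By strand, 38 genes lie on the strand of Igkc and 62 on the opposite strand. The orientation is not spread evenly, since 24 of 34 far genes, 1 of 33 middle genes and 13 of 33 near genes lie on the strand of Igkc. Genes on that strand took 46.9%, 49.9%, 46.6% and 50.5% of Igkv reads in Estrogen 1 to 4 and 48.0%, 46.5%, 49.2% and 50.4% in Vehicle 1 to 4. The mean shares were 48.5% in Estrogen and 48.6% in Vehicle, with overlapping ranges. The counting is not known to use strand, but only 1 member overlaps another annotated gene.

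**Figure D4:**
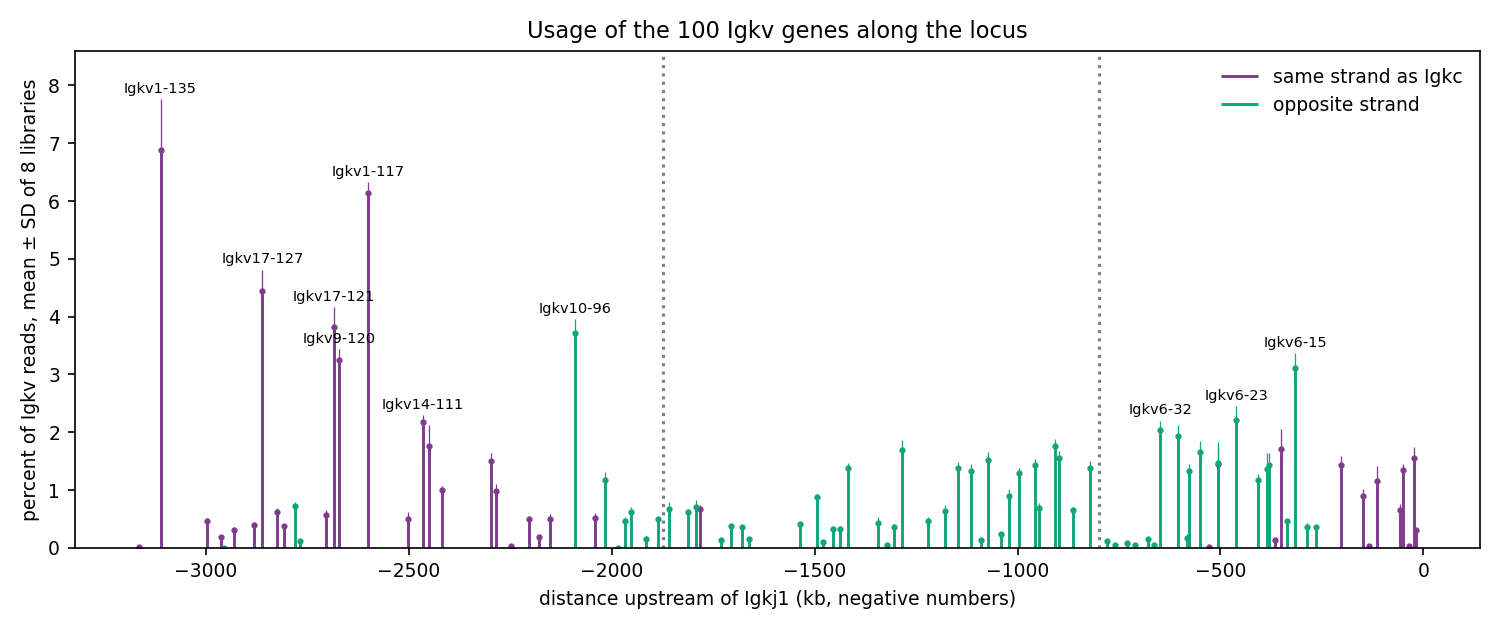
Each stem is 1 of the 100 Igkv genes at its distance upstream of Igkj1 in kb, with the mean ± SD of its percent of Igkv reads over 8 libraries, and colour gives the strand. Dotted lines part the near, middle and far groups. The highest stems, Igkv1-135 and Igkv1-117 at 6.88% and 6.13%, are in the far group on the strand of Igkc, and the middle group holds genes of the opposite strand with 1 exception.

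Each gene was then compared between the groups by edgeR's quasi-likelihood test, fitted on all 15175 genes abundant enough to test. At an adjusted p under 0.05, 0 of the 97 tested Igkv genes were called, against 0 of all genes (0%). At an unadjusted p under 0.05 there were 5 Igkv genes, all lower in Estrogen, against 3.53% of all tested genes, of which 1.26% were lower and 2.27% higher. The adjusted p-values of the Igkv genes were between 0.860 and 0.970. The DESeq2 Wald test called 0 Igkv genes, with 8 at an unadjusted p under 0.05, and limma-voom called 0, with 7. Over the alternatives the number of all genes at that p ran from 227 to 2175, so counts under different fits are not directly comparable.

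Small differences ran the same way over most of the family. The fitted value was lower in Estrogen for 93 of 97 tested Igkv genes, whereas 51.1% of all tested genes were lower and 48.9% higher. The median fitted log2 difference was -0.36 for the Igkv genes and -0.0054 for all tested genes. The genes are counted in the same libraries and move with the same Igkv sum, so they are not 93 separate observations. The median was -0.59 without Estrogen 1, and it was -0.22 without Estrogen 2 or Estrogen 4 and -0.20 without Vehicle 1. The number of Igkv genes at an unadjusted p under 0.05 also moved, to 52 without Estrogen 1, 20 without Vehicle 4, 3 without Estrogen 3 or Vehicle 2, 1 without Vehicle 1 and 0 without Estrogen 2, Estrogen 4 or Vehicle 3. The count over all genes moved as well, from 227 to 2175 over the alternatives, so these counts do not describe Igkv genes alone. The 95% intervals had a median half-width of 0.63 on the log2 scale, and for 50 of the 97 genes the interval left out a 2-fold lower level.

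The medians were alike along the locus, at -0.40 in the near, -0.32 in the middle and -0.38 in the far group. The well-used genes were at -0.24 ± 0.17 for Igkv1-135, -0.35 ± 0.25 for Igkv1-117, -0.25 ± 0.24 for Igkv17-127, -0.21 ± 0.22 for Igkv17-121 and -0.38 ± 0.28 for Igkv10-96 (fitted log2 difference ± SE). Igkv9-120 was at -0.42 ± 0.24, Igkv6-15 at -0.34 ± 0.29, Igkv6-23 at -0.34 ± 0.34, Igkv14-111 at -0.33 ± 0.24 and Igkv6-32 at -0.40 ± 0.21. Each of these 10 intervals included no difference, and with 1 library left out the 10 values lay between -0.71 (Igkv6-23) and -0.086 (Igkv17-121).

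The 5 genes with the smallest p were all in the near group, and 4 of them were of the Igkv3 family. Igkv5-37, the gene with the smallest p of all members (0.0192), had 0.646, 0.536, 0.813 and 0.444 CPM in Estrogen 1 to 4 and 1.11, 0.988, 1.21 and 0.899 CPM in Vehicle 1 to 4. Every Estrogen library was below every Vehicle library, on 14 to 28 reads in Estrogen and 30 to 43 reads in Vehicle, and the fitted log2 difference was -0.78 ± 0.28 (adjusted p = 0.860, edgeR). It was the only tested Igkv gene without overlap in CPM, 1 of 97 lower and 0 higher, against 0.771% lower and 0.896% higher over all tested genes.

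Among the Igkv3 genes, Igkv3-7 had 22.3, 11.99, 9.93 and 15.7 CPM in Estrogen 1 to 4 and 31.6, 21.4, 27.6 and 14.3 CPM in Vehicle 1 to 4. Vehicle 4 lay below Estrogen 1 and Estrogen 4, so the groups overlapped, and the fitted log2 difference was -0.66 ± 0.30. Igkv3-10 was at -0.47 ± 0.19, Igkv3-3 at -0.81 ± 0.31 and Igkv3-9 at -0.91 ± 0.39, the last 2 on fewer than 40 reads per library. All 9 Igkv3 genes had a lower fitted value and none passed the adjusted threshold. In Igkv3-9 Vehicle 4 was low at 0.390 CPM, while Vehicle 1 to 3 were between 0.903 and 0.988 CPM.

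Only 4 tested Igkv genes had a higher fitted value in Estrogen, and all were little used. Igkv1-35 had 10, 30, 40 and 27 reads in Estrogen 1 to 4 and 15, 16, 13 and 27 reads in Vehicle 1 to 4, or 0.340, 0.847, 1.16 and 0.856 CPM in Estrogen and 0.452, 0.416, 0.366 and 0.809 CPM in Vehicle. Estrogen 1 was with Vehicle 1 to 3 and Vehicle 4 was with the other Estrogen libraries, and the fitted log2 difference was 0.66 ± 0.42 (adjusted p = 0.860, edgeR). Igkv8-26 was at 0.28 ± 0.49, Igkv4-54 at 0.09 ± 0.34 and Igkv6-29 at 0.07 ± 0.48, all with overlapping CPM. With 1 library left out, Igkv8-26 lay between 0.015 (without Vehicle 2) and 0.56 (without Vehicle 3), and Igkv4-54 and Igkv6-29 turned sign.

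**Figure D5:**
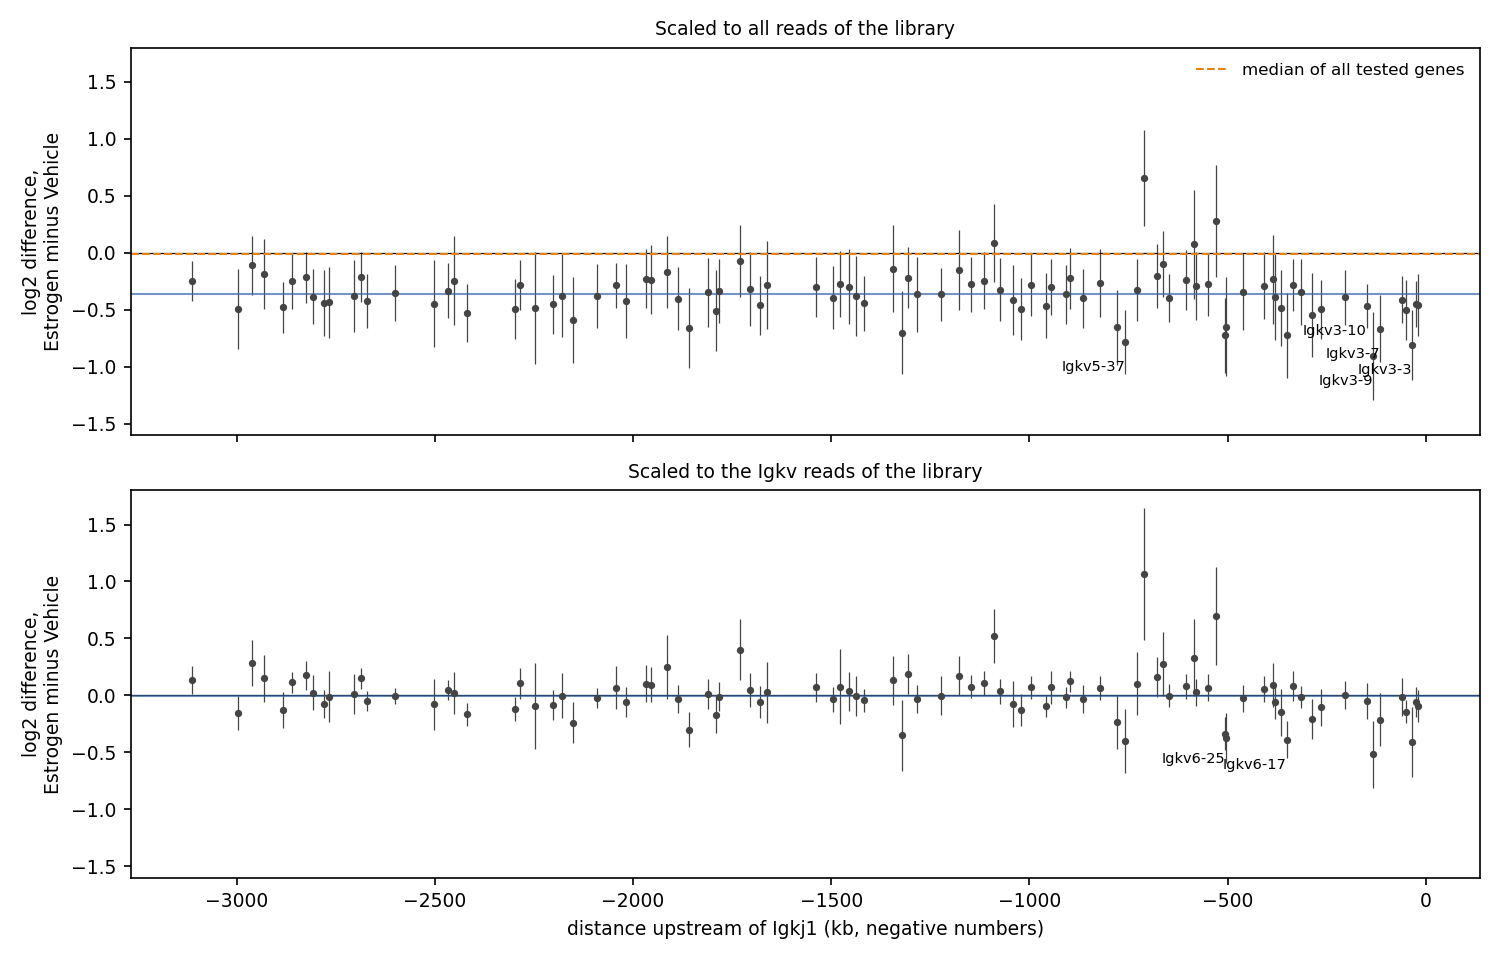
The fitted log2 difference, Estrogen minus Vehicle, with its SE is plotted for the 97 tested Igkv genes against the distance upstream of Igkj1. In the upper panel libraries are scaled to all their reads, the solid line is the median of Igkv genes (-0.36) and the dashed line that of all tested genes (-0.0054). In the lower panel libraries are scaled to their Igkv reads, which by itself centres the values near 0 (median -0.0010). Named points have an unadjusted p under 0.05.

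To separate the division of reads among V genes from their sum, the same fit was run with each library scaled to its own Igkv reads. On this scale 0 genes were called, 2 had an unadjusted p under 0.05, and the smallest adjusted p was 0.863 (edgeR). The median was -0.0010, but the scaling itself centres the values near 0, so this is no result of its own. Around that centre, 82 of the 97 fitted log2 differences were within 0.25 of 0. The genes with an unadjusted p under 0.05 were Igkv6-17 and Igkv6-25, which are named here because of these values. Each was the other's closest match in shared sequence windows. Igkv6-17 shared 31.4% of its windows with Igkv6-25, and Igkv6-25 shared 31.1% with Igkv6-17. How reads matching both genes were counted is not known, so they cannot be taken as separate findings. Igkv6-17 had 1.70%, 1.52%, 1.61% and 1.07% of Igkv reads in Estrogen 1 to 4 and 2.15%, 2.13%, 1.91% and 1.54% in Vehicle 1 to 4, and was at -0.39 ± 0.16. Only Vehicle 4 fell within the Estrogen range. Igkv6-25 had 1.31%, 1.32%, 1.31% and 1.22% in Estrogen 1 to 4 and 1.95%, 1.82%, 1.48% and 1.25% in Vehicle 1 to 4, and was at -0.33 ± 0.14. Its Estrogen shares were nearly equal, whereas the Vehicle shares spread widely and Vehicle 4 overlapped them.

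In the share of Igkv reads, 1 of 100 genes was lower and 1 was higher in Estrogen without overlap between the groups, close to the 0.771% lower and 0.896% higher found for CPM over all tested genes. Igkv2-109 had 0.896%, 0.892%, 0.979% and 0.982% in Estrogen 1 to 4 and 1.09%, 0.983%, 1.01% and 1.12% in Vehicle 1 to 4, with only a small gap between Estrogen 4 and Vehicle 2. Igkv4-54 had 0.141%, 0.197%, 0.135% and 0.142% in Estrogen 1 to 4 and 0.116%, 0.112%, 0.123% and 0.0745% in Vehicle 1 to 4. Both too are named for these values, and neither had an unadjusted p under 0.05 on this scale.

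The factors that open, recombine and transcribe the kappa locus were set beside the V genes as a list of 28. All 28 were tested, 19 had a lower and 9 a higher fitted value in Estrogen, and 0 passed, with a median fitted log2 difference of -0.05. Rag1 had 938, 691, 910 and 719 CPM in Estrogen 1 to 4 and 1003, 951, 550 and 899 CPM in Vehicle 1 to 4. Vehicle 3 was the lowest and Vehicle 1 the highest, both in the same group, and the fitted log2 difference was -0.06 ± 0.20. Its partner Rag2 was at -0.04 ± 0.15, Irf4, a factor acting at the kappa 3′ enhancer, at 0.04 ± 0.13, and Ctcf, which shapes the loops of the locus, at -0.03 ± 0.09. Those with the smallest p were Pou2f2, the octamer factor Oct-2 that binds V gene promoters, at -0.20 ± 0.10, Brwd1, a chromatin reader needed for kappa recombination in mice, at -0.23 ± 0.12, Dntt at 0.26 ± 0.16 and Pax5 at -0.23 ± 0.15, each with an adjusted p of 0.860 by edgeR.

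The reads of near-identical V genes limit the values of single members. Counted as windows of 50 bases, 22 members shared no window with another annotated gene, the median member shared 25.6% and 16 shared 50% or more, with Igkv4-59 the highest at 74.3%. The 16 genes, of 100 members, took 14.0% ± 0.6 of Igkv reads in Estrogen and 13.5% ± 0.1 in Vehicle, close to their part of the genes. Shared sequence was not confined to them, since the well-used Igkv1-117 lay just under the cut at 49.9%. How reads that match several V genes were counted is not given in the sources used here. These shares therefore cannot show how many reads were lost or misplaced. The 60 annotated Igkv pseudogenes, which lack an intact reading frame or signal, held few reads. They made up 1.46%, 2.01%, 1.57% and 1.90% of Igkv gene and pseudogene reads together in Estrogen 1 to 4 and 1.30%, 1.41%, 1.44% and 2.09% in Vehicle 1 to 4. Vehicle 4 was the highest and Vehicle 1 the lowest, and the groups overlapped.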

How the data were processed

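RNA of 8 libraries of bone marrow B cells (4 Estrogen, 4 Vehicle) was sequenced. The authors deposited raw read counts per Ensembl gene, without normalization, and the notes on processing list Bowtie 0.12.2, CASAVA and the mm10 build. Not given in the sources used here are the counter, the annotation, the strand setting, the read length and the handling of multiply matching reads. This aligner makes no spliced alignments, so reads across the V to J and J to constant joins may be under-counted. Columns were assigned by the labels' descriptions.

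Symbols, biotypes, coordinates and transcripts are from GENCODE M21 on GRCm38, the same assembly as mm10, and 46488 of 46983 identifiers (98.9%) matched. Counts were fitted with edgeR 4.0.16 in R 4.3.3 (filterByExpr, TMM, robust glmQLFit, two-sided glmQLFTest, Benjamini-Hochberg adjustment over 15175 genes, threshold 0.05), and the procedure was tested on simulated data. Library totals ran between 30181834 and 39088597 reads, and the Wilson interval of any Igkv share was at most ± 0.284 percentage points. CPM are TMM-scaled. Sums, shares and evenness over the members carry no p. Single shares per kilobase used the annotated exon length. Python 3.11.15 with matplotlib 3.10.9 drew the figures.

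Alternatives were DESeq2 1.42.0 size factors, library totals, no filter, 1 CPM in 4 libraries, the DESeq2 Wald test, voom of limma 3.58.1, the replicate number as a block, Igkv reads as library size, each library left out, thinning to 33210 Igkv reads, leaving out genes with 50% or more shared windows, and pseudogenes added. The members and lists were chosen with earlier results of these data known. Named are the 10 most used Igkv genes, up to 5 with the smallest p in each direction, Igkc, up to 4 with the smallest p of each list of light chain genes, locus factors and B cell stages, every family's share, and genes said to be chosen for their values. Other genes are named as markers or for their role, and 1 gene that the rule names is not reported here.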

Additional observations from a re-analysis of the deposited data

Results flagged for a closer look

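In Vehicle 4 the effective number of Igkv genes was 57.94 and the evenness 0.8815, while the other 3 Vehicle libraries were between 60.01 and 60.36 and between 0.8891 and 0.8904, so 1 library lay far from the rest of its group. These are the same quantity on different scales. Igkv3-9 was also far lower in Vehicle 4, at 0.3896 CPM, than in the other Vehicle libraries, at 0.9032 to 0.9878 CPM, on 13 reads. Dntt was lower in Vehicle 3, at 54.31 CPM, than in the other Vehicle libraries, at 70.57 to 72.42 CPM. Chance alone sets apart about 1 in 20 groups of 4, and 144 groups were examined.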

How the results depend on the processing

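The count of called Igkv genes was 0 in all 16 alternatives, with 0 to 58 at an unadjusted p under 0.05. Over all genes, the DESeq2 Wald test called 1 gene (Cd8b1, a T cell coreceptor chain) and the replicate block called 1 (Tgm2, a transglutaminase), both named for these calls. The replicate block put 58 of 97 Igkv genes under an unadjusted 0.05 with a median of -0.40. Over all tested genes that count ran from 227 to 2175 in the alternatives, against 535 of 15175 in the main fit. The share of all genes in the block fit alone is not given here, so the 58 cannot be read as an excess. Same-numbered libraries correlated in their deviations from the group means at 0.674, -0.131, 0.0798 and 0.554. The first and last of these were above every other pairing of an Estrogen with a Vehicle library (0.398 at most). Whether the numbers pair the libraries was thus not settled. The labels state no pairing, and the main fit used none. In each same-numbered pair both the Igkv sum and Igkc were lower in Estrogen. Leaving out 1 library gave an Igkv median between -0.59 (without Estrogen 1) and -0.20 (without Vehicle 1), a log2 ratio of the Igkv sums of -0.60 to -0.22, a difference in effective number of -1.42 to -0.516 genes, in the 10 most used genes of 0.615 to 1.79 percentage points and in the far group of 0.697 to 1.77 points. Igkv6-29 turned to -0.14 with limma-voom and -0.084 with the block. Scaled to Igkv reads, Igkv1-135 was at 0.14, Igkv17-127 at 0.11, Igkv17-121 at 0.15 and Igkv14-111 at 0.049, the sign being set by that scaling. With 1 library left out, the fitted difference lay between -0.32 and 0.37 for Igkv6-29, -0.14 and 0.26 for Igkv4-54, -0.63 and 0.078 for Iglv2, -0.30 and 0.081 for Igkj3 and -0.10 and 0.16 for Igll1. The cause was not tested. Of 569 values of named genes under alternatives, 554 kept direction and side of the threshold. Families moved by less than 1 SD in 239 of 240 values. Genes with under 40 reads per library are limited by depth.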
